A study of Salmo salar with 12 samples.

Results

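The comparison described here is that of the liver at T4 with the liver at T1 in female Atlantic salmon (Salmo salar), in CpG methylation measured by whole-genome bisulfite sequencing. Its members are the 5387158 CpG cytosines that are listed in all 4 liver libraries, out of 15943742 listed in at least 1 of those 4 and 21901728 listed in any of the 12 libraries of the series (24.6%). The liver groups are 2 libraries at T1, from fish killed immediately before a long-light photoperiod was applied, and 2 libraries at T4, the last sampling after it; the other 8 libraries are ovary and pituitary at the same time points. All fish were female broodstock from a single management group, the labels name no genotype, strain or agent, and the photoperiod is the only treatment described. There was no T4 group without the long-light regime. Because each fish was sampled once, the T1 and T4 fish are different animals, and time point, season and fish cannot be told apart with 2 fish each. A bulk liver sample also holds several cell types, and a change in cell makeup and a change within cells cannot be told apart.

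In vertebrate genomes the cytosine of most CpG dinucleotides carries a methyl group, which is copied at replication by DNMT1, placed by DNMT3 enzymes and oxidised by TET enzymes on the way to its removal. Lowly methylated stretches are typically promoters of active genes and enhancers, and stretches of intermediate level typically differ between the cells or chromosomes of a sample. The liver of a maturing female fish is known for the oestrogen-driven synthesis of vitellogenin, the yolk precursor taken up by the ovary. No annotation of the assembly of the files was used here, so regions are given by sequence and position (ICSASG_v2, counted from 1), without a gene and without their bases.

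The 4 liver libraries listed between 9063730 and 11176633 cytosines each, with 165288494 to 215513378 reads summed over them and a median of 14 to 15 reads per cytosine. Over the members, mean coverage was 25.7 and 25.5 reads at T1 and 21.9 and 22.0 reads at T4, so the T4 levels carry slightly more counting error. Only 3.89% of the members belong to a CpG listed on both strands, and 88.2% lie on the 29 chromosome sequences. The tissue label was checked by correlation over the 3563979 cytosines listed in all 12 libraries: liver libraries correlated with each other at 0.823 to 0.835, with ovary libraries at 0.683 to 0.770 and with pituitary libraries at 0.664 to 0.706. No marker gene could be examined.

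Titles of the libraries carry a fish code. The liver libraries are T1F3 and T1F4 (T1 replicates 1 and 2) and T4F3 and T4F4 (T4 replicates 1 and 2). Several ovary and pituitary libraries have the same codes, read here as the same fish, which the labels do not spell out. For the T1 ovary the titles give T1F1 as replicate 1 and T1F3 as replicate 2, whereas the deposited file names give these codes the other way round; the tile values below lean to the file names, and since both libraries are T1 no group changes.

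The liver methylome was high and almost level between the time points. Mean methylation was 82.08% and 82.04% in the T1 libraries and 81.99% and 82.01% in the T4 libraries. Both T4 libraries were below both T1 libraries, by 0.061 percentage points (points below) on average, against 0.043 points between the T1 replicates and 0.023 points between the T4 replicates. The exact two-sided permutation test of the library means gave p = 0.333, the smallest that 2 against 2 libraries allow. Without any difference, time points that do not overlap are therefore expected in a share of 0.333 of classes, windows or tiles. The order did not hold when all cytosines of each file were used in place of the common ones: T4 was then 0.087 points higher, with levels of 82.16% and 82.06% at T1 and 82.17% and 82.22% at T4. Weighted by reads, the difference was -0.025 points and the time points overlapped (exact permutation p = 0.667).

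The makeup of the members by level was also close. Cytosines above 80% made up 71.4% and 71.3% of the members at T1 and 71.1% and 70.9% at T4. Those between 20% and 80% made up 24.83% and 24.98% at T1 and 25.05% and 25.35% at T4. Cytosines with under 20% methylation made up 3.77% and 3.67% at T1 and 3.84% and 3.78% at T4. In each of these shares the T4 libraries were shifted away from the highly methylated class, by less than 1 point. Coverage was lower in the same libraries, and its part in these shares was not tested.

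The small deficit at T4 was at cytosines of intermediate level. To keep the starting level apart from the change itself, cytosines were put into classes of 10 points by 1 T1 library, and T4 was compared with the other T1 library, each T1 library in turn. On average over both settings T4 was lower in each class from 10% to 80%, with differences of -0.41 points at 10 to 20%, -0.74 at 20 to 30%, -0.69 at 30 to 40%, -0.81 at 40 to 50%, -0.75 at 50 to 60%, -0.57 at 60 to 70% and -0.22 at 70 to 80%. It was 0.24 points higher at 0 to 10%, 0.003 points higher at 80 to 90% and 0.079 points higher at 90 to 100%. The lower part of this range was uneven between the T4 libraries. At 20 to 30%, T4 replicate 1 differed from the reference by -1.33 points and T4 replicate 2 by -0.15 points, whereas at 50 to 60% they differed by -0.73 and -0.77 points. At 20 to 30% the value also depended on which T1 library set the class, at -1.28 and -0.20 points. With T1 replicate 2 setting the class, T4 replicate 2 was above the reference, by 0.51 points at 10 to 20%, 0.36 points at 20 to 30% and 0.33 points at 30 to 40%, and the T4 mean at 10 to 20% was 0.001 points above it.

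A class that uses no liver library gave the same sign. That class averages T1 and T4 libraries, most with a fish code of a liver library, so it is not independent of time point or fish. Cytosines that also differ between the time points there are drawn to the middle classes. When cytosines were grouped by their mean level in the 8 ovary and pituitary libraries, both T4 livers were below both T1 livers in each class from 10% to 80%. The class of 20 to 30% in the other tissues had liver levels of 49.15% and 49.13% at T1 and 48.22% and 47.49% at T4, a difference of -1.29 points, while the T4 replicates differed from each other by -0.73 points. At 40 to 50% the levels were 65.06% and 65.30% at T1 and 64.56% and 63.98% at T4 (-0.91 points), and at 70 to 80% they were 80.13% and 80.21% at T1 and 79.95% and 79.80% at T4 (-0.29 points). The time points overlapped at 0 to 10% (-0.12 points), at 80 to 90% (0.083 points) and at 90 to 100% (0.16 points). Over 20 to 80% as a whole, the difference was -0.45 points with the T1 libraries setting the class, where the settings gave -0.51 and -0.38, and -0.61 points with the other tissues setting it, where the standard deviation within time points was 0.17 points. This range was chosen as a summary after the classes had been seen.

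**Figure D1:**
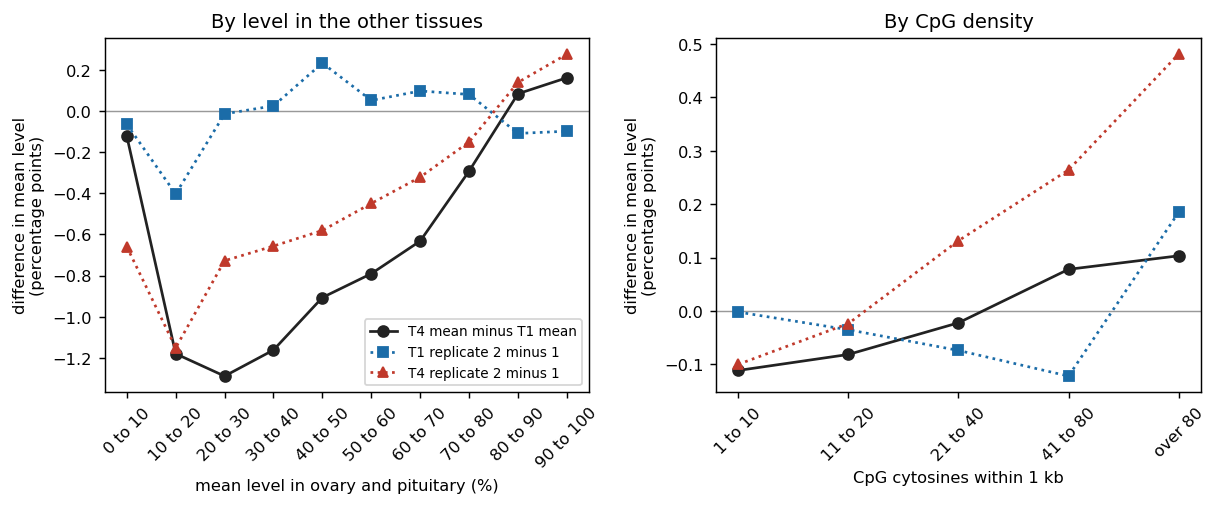
Difference in mean liver methylation (percentage points, vertical axis) by mean level in ovary and pituitary (left) and by the number of CpG cytosines within 1 kb that are listed in any library (right). Black circles are T4 mean minus T1 mean, blue squares and red triangles are the differences between replicates of T1 and of T4. The black line is lowest at 20 to 30% (-1.29 points), and in the densest class it lies between zero and the difference between the T4 replicates.

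CpG density separated the members less. Density here is the number of CpG cytosines in the surrounding 1 kb that are listed in any of the 12 libraries. A cytosine with fewer than 10 reads in each library is not counted, so density also depends on coverage. With 1 to 10 CpG cytosines in the surrounding 1 kb, the T1 libraries were at 79.62% and 79.62% and the T4 libraries at 79.56% and 79.46%, a difference of -0.11 points. With 11 to 20 the difference was -0.081 points, again without overlap. In the denser classes the time points overlapped: the difference was -0.022 points at 21 to 40, 0.078 points at 41 to 80 and 0.10 points above 80, where the T4 replicates themselves differed by 0.48 points. Density and level are not independent, since mean liver methylation at T1 rose from 79.6% in the sparsest class to 90.9% in the densest. Among cytosines of 20 to 80% in the other tissues, T4 was lower without overlap at each density that held such a class, by -0.54 points at 1 to 10, -0.63 at 11 to 20, -0.62 at 21 to 40 and -0.77 at 41 to 80. Among cytosines of 80 to 100%, the time points overlapped at each of the 5 densities, with differences of 0.12 to 0.24 points.

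Distance to lowly methylated DNA was measured from the 12793 tiles of 1 kb with a mean under 20% in ovary and pituitary. Inside such tiles the liver was at 14.1% and 13.8% at T1 and 14.0% and 13.7% at T4, and the time points overlapped. In the tile next to them the levels were 60.63% and 60.56% at T1 and 60.41% and 60.28% at T4, a difference of -0.25 points. From 2 to 5 kb it was -0.087 points, from 21 to 100 kb -0.11 points and beyond 100 kb -0.060 points, each without overlap. Of the 6 distance classes, the tiles flanking lowly methylated DNA had the largest difference, and their mean level, 60.6% at T1, was the closest to the middle of the scale.

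The deficit was spread over the chromosomes. T4 was lower on each of the 29 chromosome sequences, by between -0.019 points (CM003306.1) and -0.19 points (CM003305.1), and without overlap on 25 of them. On CM003305.1 the levels were 81.97% and 81.96% at T1 and 81.82% and 81.73% at T4. The chromosomes are parts of the same 4 libraries and are not separate evidence of direction. Scaffolds went the other way, with 80.91% and 80.80% at T1 and 80.91% and 81.09% at T4, a difference of 0.14 points with overlapping time points. With coverage at most 3 times the median the scaffolds were at 81.36% and 81.24% at T1 and 81.36% and 81.51% at T4, and there both T4 libraries were above both T1 libraries, the nearest by under 0.01 points.

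Along the chromosomes, cut into 20 bins of equal length, T4 was lower in 18 bins. The lowest values were -0.14 points in bins 14 and 15, the first bin was at 0.007 points with overlap, and the last bin at 0.028 points without overlap (81.41% and 81.38% at T1, 81.44% and 81.42% at T4). With coverage at most 3 times the median, the time points overlapped in the last bin (81.59% and 81.55% at T1, 81.61% and 81.58% at T4). Together the outer 5% at both ends were at 82.44% and 82.36% at T1 and 82.41% and 82.42% at T4, an overlap, whereas the rest of the chromosomes was at 82.22% and 82.19% at T1 and 82.11% and 82.11% at T4, a difference of -0.098 points. The outer 10% differed by -0.028 points, with overlap.

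**Figure D2:**
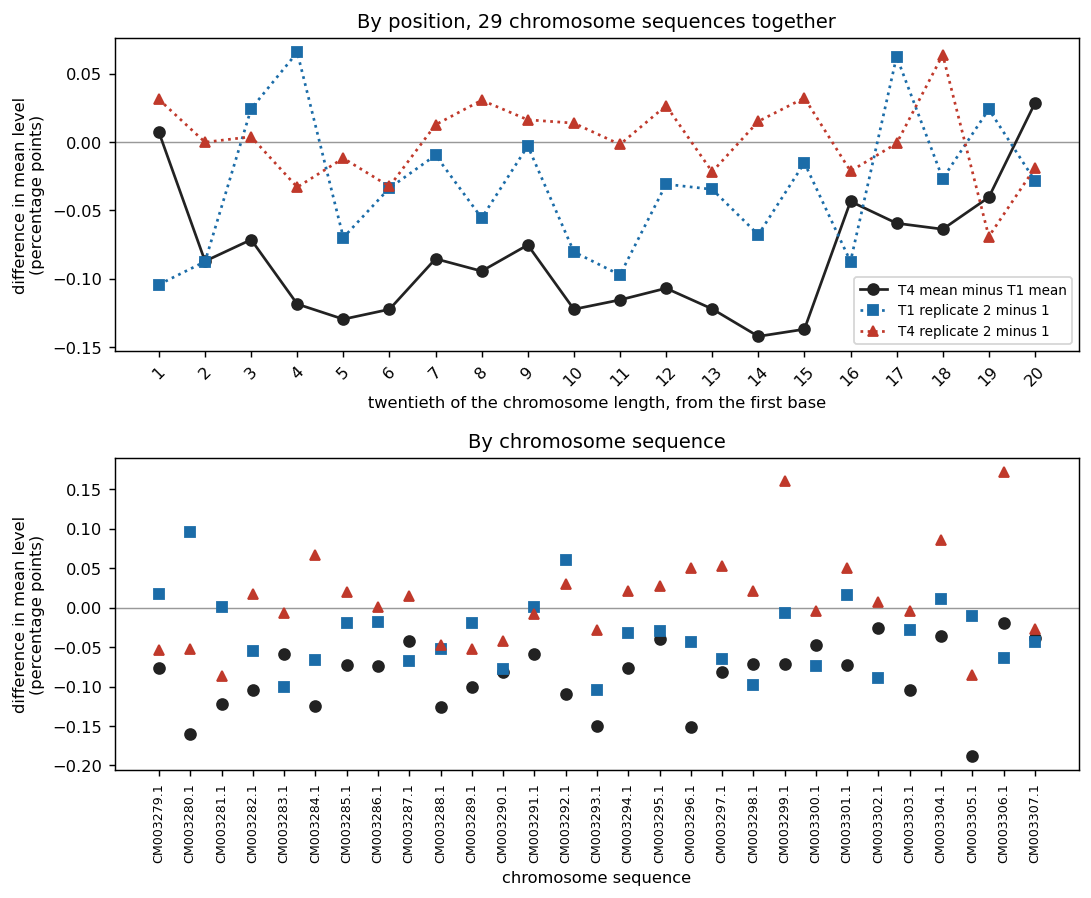
Difference in mean liver methylation (percentage points) by twentieth of the chromosome length over the 29 chromosome sequences together (top) and by chromosome sequence (bottom); black circles are T4 mean minus T1 mean, blue squares and red triangles the differences between replicates of T1 and of T4. The black circles are below zero on each chromosome sequence and in all bins but the first and the last; in some bins, such as 7 and 15, they are several times the replicate differences, and in others, such as 2 and 16, they are not larger than the T1 replicate difference.

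In windows of 1 Mb the liver differed little. Of 2238 windows, 827 had no overlap between time points (37%), near the share of 0.333 expected without any difference. Of these, 254 had T4 higher and 573 had T4 lower, and T4 was lower in 60.6% of all windows. The median absolute difference over all windows was 0.21 points. The standard deviation of the window difference was 0.42 points between the T1 replicates, 0.40 points between the T4 replicates and 0.41 to 0.44 points between a T1 and a T4 library. The largest increase, 1.54 points, was at CM003279.1:133000001-134000000 (79.64% and 81.05% at T1, 81.94% and 81.82% at T4). Next were 2 windows on CM003284.1, at 19000001-20000000 (1.45 points) and 35000001-36000000 (1.13 points), both of which hold tiles called below. Of the 1454 members of the first window, 34 lie in 1 called tile that differed by 77.8 points. The window difference can lie largely in that tile, and its share was not calculated. The largest decreases were -1.29 points at CM003284.1:8000001-9000000, -1.24 points at CM003290.1:2000001-3000000 and -1.05 points at CM003288.1:63000001-64000000. On CM003290.1 the T1 libraries were at 76.9% and 77.2% and the T4 libraries at 75.7% and 75.9%. Tiles called below also lie in the window of the largest increase, at CM003279.1:133006001-133007000 (46.1 points). The window of the largest decrease holds CM003284.1:8148001-8149000 (-47.3 points) and CM003284.1:8942001-8943000 (-62.0 points).

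Single libraries differed nearly as much within a time point as across. The SD of the difference between 2 libraries over the members, with the binomial counting variance removed, was 6.89 points for the T1 pair and 6.18 points for the T4 pair, and 6.63 to 7.24 points for the 4 pairs of a T1 with a T4 library, so the ranges overlapped. The mean variance across time points was 1.14 times that within. By level in the other tissues this ratio was 1.07 at 0 to 20%, 1.27 at 20 to 40%, 1.25 at 40 to 60%, 1.14 at 60 to 80% and 1.03 at 80 to 100%. That level averages T1 and T4 libraries, so cytosines that also differ between the time points there are drawn to the middle classes. Without T4 replicate 2 the ratio over all members was 0.98, and without T1 replicate 2 it was 1.33.

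Regions with large differences were few. Reads were summed over 698245 tiles of 1 kb with at least 3 members, and edgeR's quasi-likelihood test on methylated and unmethylated reads called 470 tiles at an adjusted p under 0.05 (0.0673%), 209 higher at T4 (0.0299%) and 261 lower (0.0374%). All 470 had both T4 libraries on 1 side of both T1 libraries, as did 33.8% of all tiles. The absolute difference in the called tiles had a median of 36.3 points and ran from 3.46 to 84.1 points; 87 exceeded 50 points and 49 were under 20 points. The calls rested on the test. With limma on log ratios of the same reads no tile passed (0 calls, smallest adjusted p 0.063, 36963 tiles at an unadjusted p under 0.05, against 36324 with edgeR, which is 5.2% of all tiles). Without any difference, an unadjusted p under 0.05 is expected in a share of 0.05 of the tiles, and both counts are close to that. Leaving out T1 replicate 1, T1 replicate 2, T4 replicate 1 or T4 replicate 2 gave 739, 947, 769 and 632 calls, and 203 of the 470 tiles were called in all 4 of these fits.

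Differences of this size also occurred between fish of the same time point. The level differed by over 40 points in 737 tiles between the T1 replicates and in 655 tiles between the T4 replicates, and in 774 to 1035 tiles between a T1 and a T4 library. Over 20 points it was 9859 and 9458 tiles within a time point and 9815 to 11701 tiles across. Pairs across time points were thus above or within the range of the pairs within.

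The called tiles had a median T1 level of 56.0%, but few were intermediate at both time points. Those called higher had a median of 33.5% and 33.9% in the T1 libraries and 78.8% and 80.6% in the T4 libraries. Those called lower had a median of 79.5% and 76.8% at T1 and 34.8% and 27.4% at T4. Of the 470, 123 went from 60% or more to between 20% and 60%, 97 from between 20% and 60% to 60% or more, 29 from 60% or more to under 20% and 23 from under 20% to 60% or more. A further 55 went from between 20% and 60% to under 20%, and 48 from under 20% to between 20% and 60%. Another 63 stayed at 60% or more, 23 under 20% and 9 between 20% and 60%. Over all tiles the median T1 level was 86.4%.

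By level in ovary and pituitary, which did not enter the test, 0.609% of the tiles of 20 to 40% were called, 0.438% of those of 0 to 20%, 0.321% of those of 40 to 60%, 0.107% of those of 60 to 80% and 0.0108% of those of 80 to 100%. That level is a mean over T1 and T4 libraries. A tile that also differs between the time points in those tissues is thereby drawn to the middle of the scale. In CM003293.1:43647001-43648000 the ovary was at 0% and 0% at T1 and 95.5% and 86.5% at T4, and the mean over both tissues was 45.8%. By density the share was 0.036% with up to 10 listed CpG cytosines, 0.0666% with 11 to 20 and 0.123% with 21 to 40, and then 0.0568% with 41 to 80 (9 of 15850 tiles) and 0.178% above 80 (1 of 562). A tile with more reads needs a smaller difference to be called, and neither share was adjusted for that. Chromosome ends were not set apart, with 0.0622% of tiles called in the outer 5% and 0.0684% in the rest, nor were scaffolds (0.0615%). CM003290.1 had the most calls, 40 of 25999 tiles (0.154%), and CM003299.1 the lowest share, 4 of 16477 (0.0243%). Of the called tiles 46 had a coverage of over 3 times the median in at least 1 library, where 0.257% of tiles were called.

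Where neighbouring tiles were tested and not called, they differed far less. The 470 tiles formed 439 regions, of which 28 joined 2 or 3 touching tiles. Tested neighbours that were not called themselves numbered 154 and 156 at 1 kb to either side and 137 and 140 at 2 kb. On either side most called tiles had no such neighbour, and a region could end where no tile was tested. Leaving out called neighbours can also lower the means beside the called tiles. In the direction of the call, the mean difference was 37.7 points in the called tiles. In these neighbours it was 7.93 and 8.35 points at 1 kb, and 2.30 and 0.93 points at 2 kb. From 3 kb to 10 kb it stayed between -0.76 and 0.97 points.

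**Figure D3:**
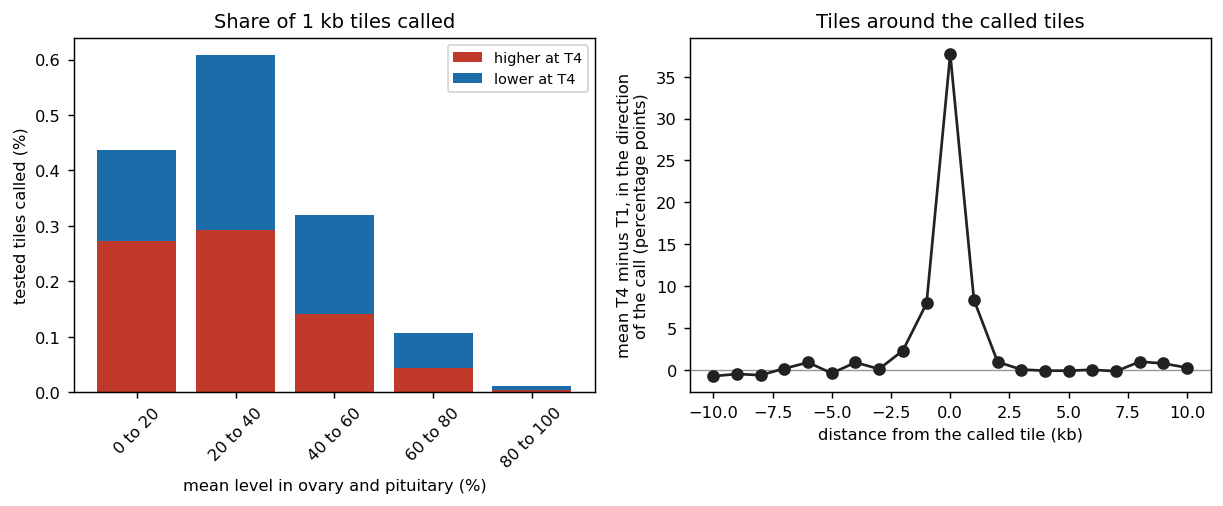
Share of tested 1 kb tiles called (percent) by mean level in ovary and pituitary, with tiles higher at T4 in red and lower in blue (left), and mean T4 minus T1 in the direction of the call (percentage points) by distance from the called tile (right). The share is largest at 20 to 40% (0.609%). The difference is 37.7 points in the called tiles and under 3 points at 2 kb, in tested tiles that were not called themselves.

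The largest increase was in CM003290.1:76503001-76504000, where 20 members between 76503375 and 76503946 were at 1.89% and 6.85% at T1 and 88.8% and 88.2% at T4 (84.1 points, adjusted p = 5.4e-08 by edgeR). All 20 cytosines separated the time points, from 318 to 553 counts per library summed over them. A read that covers several cytosines is counted once for each. The first of them, at 76503375, was at 33.3% and 90% at T1 and 94.1% and 93.75% at T4. The rest of the stretch was nearly free of methylation in both T1 livers and highly methylated in both T4 livers. The largest decrease was its counterpart in size, in CM003285.1:14700001-14701000, where 9 members were at 82.1% and 86.7% at T1 and 0.39% and 0.38% at T4 (-84.0 points, adjusted p = 5.8e-09). This tile and the next form a region of 2 kb, CM003285.1:14700001-14702000, at 76.2% and 78.7% at T1 and 1.30% and 1.19% at T4.

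Many of the other named increases were uneven at T4. In CM003293.1:43647001-43648000 the T1 libraries were at 2.20% and 0% and the T4 libraries at 55.5% and 89.2%. The 0% was 0 of 107 counts over 6 cytosines, a limit of 2.80% only if all counts were independent. In CM003295.1:48236001-48237000 the libraries were at 0% and 3.57% at T1 and at 47.0% and 95.5% at T4. The 0% was 0 of 143 counts over 5 cytosines, a limit of 2.098% on the same condition. In CM003282.1:36668001-36669000 the levels were 7.78% and 6.25% at T1 and 51.3% and 95.4% at T4. In these 3 tiles T4 replicate 1 was intermediate and T4 replicate 2 high. The order was the opposite in CM003304.1:17579001-17580000, with 6.82% and 7.55% at T1 and 91.1% and 62.8% at T4, and in CM003298.1:37307001-37308000, with 3.09% and 8.497% at T1 and 87.2% and 60.5% at T4. CM003286.1:18750001-18751000 was more even, at 15.1% and 23.7% at T1 and 93.2% and 87.8% at T4. The remaining increases were 71.1 points in CM003288.1:97677001-97678000, where the T1 libraries were apart at 2.41% and 36.2%, 69.2 points in CM003287.1:107781001-107782000 and 66.7 points in CM003279.1:158539001-158540000. Across the 10 increases the adjusted p by edgeR ran up to 0.020.

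Among the decreases, CM003305.1:10595001-10596000 had 92.0% and 75.2% at T1 and 3.20% and 10.6% at T4 over 9 members. CM003301.1:17178001-17179000 had 84.6% and 81.4% at T1 and 2.49% and 11.9% at T4 over 12 members. Both tiles were highly methylated at T1 and low at T4, where only replicate 1 was nearly unmethylated. The T4 libraries were apart in CM003285.1:12995001-12996000, with 94.5% and 96.2% at T1 and 34.5% and 0.82% at T4, in CM003283.1:34214001-34215000, with 91.1% and 90.7% at T1 and 38.9% and 2.13% at T4, and in CM003289.1:75539001-75540000, with 88.2% and 92.5% at T1 and 35.6% and 4.84% at T4. In CM003284.1:889001-890000 it was the T1 libraries that were apart, at 47.9% and 90.3%, and both T4 libraries were at 0%. These were 0 of 62 and 0 of 54 counts over 4 cytosines, limits of 4.84% and 5.56% only if all counts were independent. The other decreases were -77.7 points in CM003287.1:70547001-70548000, -75.2 points in CM003288.1:100631001-100632000 and -68.3 points in CM003285.1:38547001-38548000. In the 20 named tiles each member cytosine separated the time points in the direction of its tile. Intervals and limits cover counting error only, with the counts of a tile taken as independent. The edgeR test used the same counts, so a read that covers several cytosines enters it more than once. The 7 members of CM003285.1:12995001-12996000 lie within 25 bp, with 10 to 24 reads per cytosine and library. The 4 members of CM003288.1:100631001-100632000 lie within 20 bp.

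**Figure D4:**
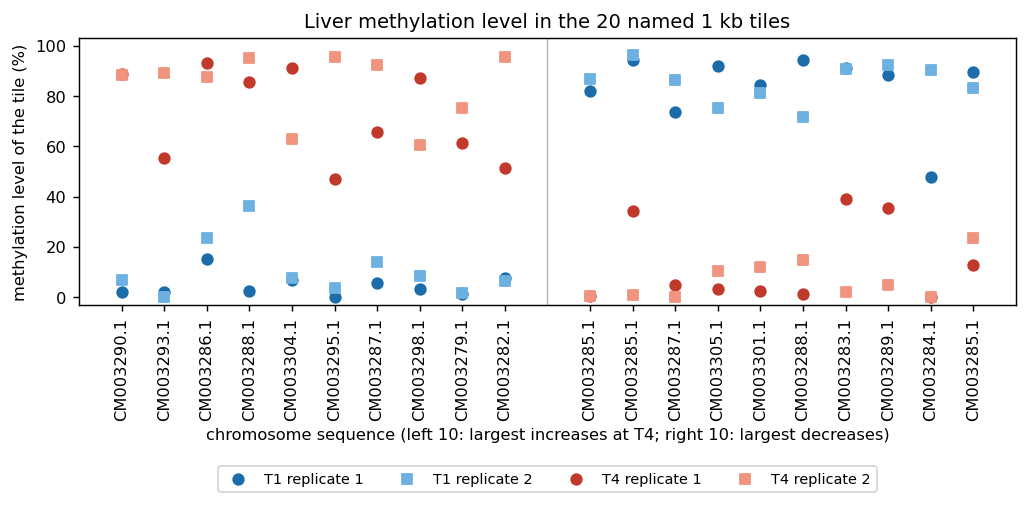
Methylation level (percent) of the 20 named 1 kb tiles in each liver library, with T1 in blue and T4 in red, circles for replicate 1 and squares for replicate 2; the 10 tiles with the largest increases are left of the line and the 10 with the largest decreases right of it, labelled by chromosome sequence. Red and blue do not overlap in any tile, and in several tiles 1 of the 4 libraries lies near the middle of the scale.

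Joined regions had the same range of patterns. CM003283.1:70658001-70661000 spanned 3 tiles and 34 members at 41.5% and 41.4% at T1 and 83.3% and 83.8% at T4. CM003296.1:56056001-56059000 spanned 3 tiles at 44.1% and 39.5% at T1 and 82.4% and 82.3% at T4. CM003279.1:43236001-43239000 fell over 3 tiles, from 82.7% and 84.0% at T1 to 48.5% and 51.1% at T4. The 2 windows of CM003284.1 named above hold CM003284.1:19718001-19720000 (34.3% and 40.4% at T1, 83.7% and 83.1% at T4) and CM003284.1:35927001-35929000 (34.4% and 25.8% at T1, 85.5% and 88.5% at T4). The first tile of CM003284.1:19718001-19720000 differed by 77.8 points. It was not named because its coverage was over 3 times the median in at least 1 library.

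Most of the tiles called in liver that had values in the other tissues differed between the time points in the same direction there. Ovary and pituitary had at least 3 common cytosines in 390 of the 470 tiles. Signed by the liver call, the median difference of T4 from T1 was 23.7 points in the pituitary and 19.7 points in the ovary, against 35.5 points in the liver itself over the same cytosines. The pituitary had the direction of the liver in 380 of 390 tiles and the ovary in 359. Without overlap between time points it was 288 tiles in the liver's direction and 1 against it in the pituitary (73.8% and 0.256%), and 238 and 7 in the ovary (61.0% and 1.79%). Over all 495114 tiles with values in each tissue, these shares were 18.6% and 15.9% in the pituitary and 19.5% and 18.0% in the ovary. Single libraries broke the pattern in some named tiles. In CM003290.1:76503001-76504000 T1 ovary replicate 2 was at 62.4%. In T4 replicate 1 of ovary and pituitary, CM003301.1:17178001-17179000 was at 73.3% and 75.9%, and CM003298.1:37307001-37308000 at 9.78% and 4.55%. Others, such as CM003295.1:48236001-48237000, separated the time points in both tissues. The ovary and pituitary libraries are separate libraries, but most have a fish code of a liver library, so they are not independent animals.

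Taken 1 library at a time against the mean of the other time point, the libraries of a tissue differed in how far they went in the liver's direction. In the pituitary, T4F4, a code shared with liver, was 28.5 points from the T1 mean (median) and T4F2, a code with no liver library, 18.9 points. The values exceeded 20 points in 276 and 188 of 390 tiles. In the ovary T4F4 was at 24.4 points and T4F3 at 15.5 points from the T1 mean. Both of these codes are shared with liver, yet ovary T4F3 was below pituitary T4F2, whose code has no liver library. Whether T4F3 is the same fish in liver and ovary was not tested. T1 ovary replicate 1 (T1F1 by its title, T1F3 by its file name) was 24.3 points from the T4 mean and replicate 2 (T1F3 by its title, T1F1 by its file name) 14.4 points, so which of the codes had the larger value turns with the naming. Each of these values has the other time point as its reference, whose libraries mostly carry the codes of the liver fish on which the tiles were called, so a value in the liver's direction does not show a change in a fish without a liver library.

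The share of tiles with the liver's sign in the other tissues rose with the size of the liver difference. In tiles with a liver difference under 5 points, 51.0% had the same sign in the pituitary and 50.3% in the ovary. The SD between replicates over all tiles was 6.78 points at T1 and 6.80 points at T4. The sign of so small a liver difference is therefore uncertain, and a share near 50% cannot show what the other tissues did there. At 5 to 10 points the shares were 54.3% and 52.3%, and at 10 to 20 points 63.9% and 58.2%. At 20 to 30 points they were 83.1% and 73.9%, and over 30 points 96.3% and 88.0% of 669 tiles. Across all 495114 tiles the correlation of the liver's T4 minus T1 with that of the pituitary was 0.222 and with that of the ovary 0.125, as a description over tiles that share fish and sequence.

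**Figure D5:**
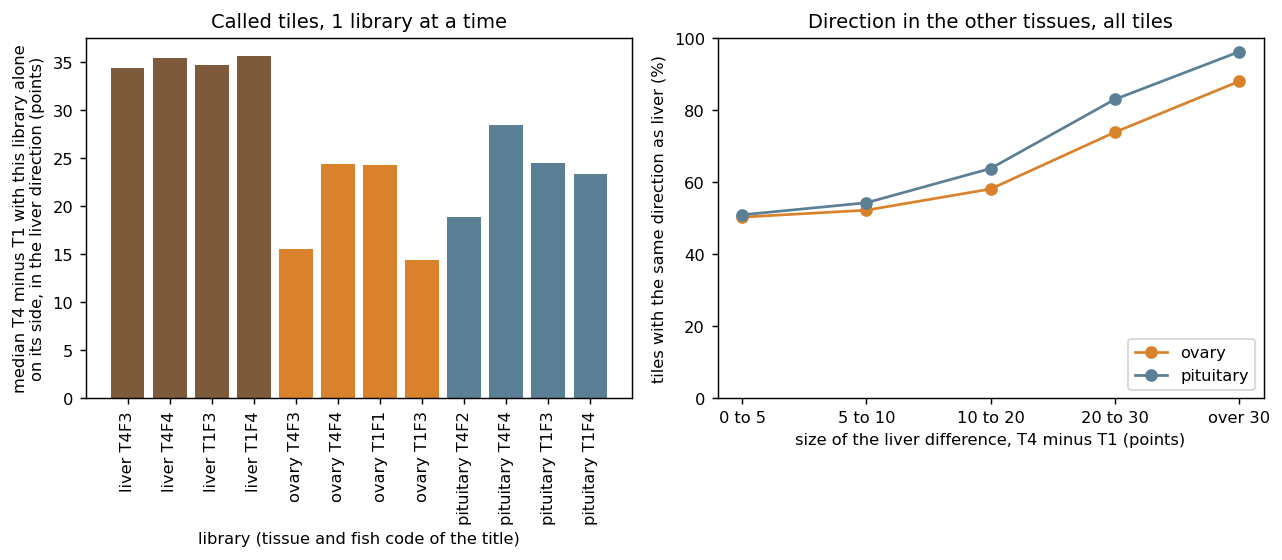
Left, median T4 minus T1 (percentage points, signed by the liver call) in the called tiles when a single library stands for its time point, by tissue and fish code of the title; right, percent of tiles in which ovary or pituitary had the sign of the liver difference, by the size of that difference. All 8 ovary and pituitary libraries are above zero (14.4 to 28.5 points), and the share of equal signs is near 50% under 5 points and 96.3% in pituitary over 30 points.

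Differences between replicate fish were followed across tissues in the same way. The T1 liver replicates, T1F4 and T1F3, differed by over 30 points in 1568 tiles, and the T1 pituitary libraries with these codes differed in the same direction in 90.8% of them, with a median of 26.1 points. The T4 pituitary pair and the T4 ovary pair, which are other fish, had the same direction in 49.0% and 50.7%. The T4 liver replicates, T4F4 and T4F3, differed by over 30 points in 1451 tiles, and the ovary pair with these codes had the same direction in 66.5% (median 5.29 points), the pituitary pair T4F4 and T4F2, with 1 of the codes, in 65.4% (median 5.71 points), and the T1 pairs of pituitary and ovary in 44.9% and 43.4%. The large share was thus seen in the T1 pituitary pair, and the T4 ovary pair, which also shares both codes with liver, was close to the pituitary pair that shares 1. For the T1 ovary, replicate 2 lay on the side of liver T1F4 in 71.8% of the 1568 tiles, so that replicate 1 lay on the side of liver T1F3, against the titles and along with the file names. The part that fish and time point each have in the 470 calls was not tested, and genotype was not measured.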

How the data were processed

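Bisulfite libraries of 12 tissue samples were used, of which 4 are liver. The submitters' processing notes name Trim Galore 0.5, BS-Seeker2 2.1.8, Bowtie2 and Picard, and reads were aligned to ICSASG_v2. The deposited files give the raw count of reads and of methylated reads per CpG cytosine, and the authors kept cytosines with at least 10 reads; totals are in the report, and a level from 10 reads is coarse. Groups came from the descriptions.

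Levels were methylated over all reads. The members, classes, regions and lists were chosen with earlier results of these data known, and the summary ranges (20 to 80% level, over 80 CpGs, outer 5%) and distance classes after the classes were seen. Tiles of 1 kb with at least 3 members were tested with edgeR 4.0.16 (R 4.3.3) on methylated and unmethylated counts, with a term per library and Benjamini-Hochberg adjustment over all tiles; DSS, the study's tool, was not installed. The test was tried on simulated data. A first simulation with an assumed, larger spread recovered few of the changed tiles. It was replaced by one with the spread estimated from the replicates and moves of other sizes, while the test was left as it was. The criterion for passing was set after the first simulation. It asked for recovery of the largest moves only, and limited the share of calls at tiles that were not moved. The test may therefore miss smaller changes. Every simulated tile had the same spread, so false calls at tiles whose fish differ more were not measured. Alternatives were limma 3.58.1 (pseudocount 1), a replicate block, other tile lengths (200 bp, 5 kb), at least 20 reads, a coverage maximum of 3 times the median, at least 6 CpGs, all 12 libraries, and each liver library left out. Replicate differences of T1 and T4 were correlated at -0.012 over tiles, and the numbers were not taken as pairs. Named tiles were the 10 largest increases and 10 largest decreases among called tiles without overlap and with coverage at most 3 times the median; named windows were the 3 largest each way with at least 500 members and no overlap. Where no reads were methylated, the limit is 3 of the counts summed over the tile. A read that covers several cytosines is counted once for each, so the limit holds only if the counts were independent. With 2 fish per time point, the edgeR p-values rest largely on a spread pooled over all tiles (prior degrees of freedom 15.5). They do not measure the spread between the fish in the tile alone, so a tile can be called with its T4 fish far apart. The planned gene and marker lists were not used, since no annotation of the build was used here. Figures were drawn with matplotlib 3.10.9.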

Additional observations from a re-analysis of the deposited data

How the results depend on the processing

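Against 470 called tiles, limma gave 0, and a replicate block gave 2078, of which 470 were the original tiles; the block leaves 1 residual degree of freedom and the numbers share nothing that the data showed (correlation of replicate differences -0.012). Fits without 1 library gave 632 to 947, in which the lone library of a time point is assumed to vary like the others. At least 20 reads gave 136 of 187902 tiles and the fit of all 12 libraries 187 of 495114, both on fewer tiles. The tiles of 200 bp and of 5 kb, the coverage maximum and at least 6 CpGs gave 317, 345, 416 and 319. The coverage maximum kept 405 of the 470. Of the 20 named tiles, 20 stayed called with the block and with the coverage maximum, 0 with limma, 19 or 20 without any 1 library, and 10 of the 13 that the fit of all 12 libraries tested; under these settings none changed direction. Not called in that last fit were CM003298.1:37307001-37308000, CM003282.1:36668001-36669000 and CM003289.1:75539001-75540000. The mean level was -0.061 points, +0.087 with every cytosine of each file, and -0.097 to -0.025 under the other choices of cytosines. Without 1 library it was -0.083 to -0.040. The 20 to 80% difference was -0.45 points, -0.61 with the class set by ovary and pituitary and -0.78 with the class set by all 4 liver libraries; without a T4 library it was -0.47 to -0.42, and leaving out a T1 library gives no value, since no reference library remains. The densest class, 0.10 points, ran from -0.14 to 0.34 without 1 library, and the chromosome ends, 0.016 points, from -0.021 to 0.052, and were at -0.028 with 10 bins. Chosen after seeing the data, leaving out 1 library gave -0.31 to -0.19 points next to lowly methylated tiles and a ratio of variances of 0.98 to 1.33, below 1 without T4 replicate 2. The cause of these changes was not tested. With 2 libraries per time point no permutation p can go below 0.333, and depth limits single cytosines to coarse levels.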
